A study of Mus musculus with 4 samples.

Results

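The 9 genes described here encode transcription factors of the excitatory lineage of the dorsal forebrain, namely Neurod1, Neurod2, Neurod6, Neurog2, Tbr1, Eomes, Emx1, Emx2 and Fezf2. They were chosen by name, out of 21924 protein-coding genes, and their chromatin was read in nuclei sorted by GFP to collect interneurons. A peak was assigned to a gene when it touched the annotated gene or the stretch of 2 kb before it, and the transposition cut sites in it were counted. Of the 579 transcription factor motifs in the deposited motif tables, the 6 named for NEUROD, NEUROG, TBR1 or EOMES were added. Single-nucleus ATAC-seq, which cuts and tags open chromatin with a transposase, was run on GFP+ nuclei of mouse brain at postnatal day 30, in 2 libraries from cortex (cortex 1 and cortex 2) and 2 from hippocampus (hippocampus 1 and hippocampus 2). All mice in the 4 libraries carried the genotype Dlx6aCre;Sun1/sfGFP, in which Cre recombinase switches on a GFP-tagged nuclear membrane protein, so that GFP marks nuclei with a history of Cre in the Dlx lineage rather than a current cell type. The labels did not state whether the 2 libraries of a region came from different animals. The p-values therefore measured only the spread between these libraries, which may be technical.

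Excitatory and inhibitory neurons of the forebrain arise from different progenitors. In the dorsal progenitor zone, Emx1 and Emx2 are homeobox genes that mark cortical territory, and Neurog2 is a proneural basic helix-loop-helix (bHLH) factor that starts glutamatergic differentiation. Eomes then marks intermediate progenitors, while Neurod1, Neurod2 and Neurod6, bHLH factors of the same superfamily, act in differentiating excitatory neurons. Tbr1, a T-box factor like Eomes, and the zinc finger factor Fezf2 specify classes of deep-layer projection neurons. Interneurons come from the ganglionic eminences of the ventral forebrain, where Dlx genes are active, and synthesise GABA with the enzymes encoded by Gad1 and Gad2.

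The libraries held 2355 to 5576 nuclei and 32005984 to 117290059 cut sites in peaks, with a median of 7352 cut sites per nucleus in cortex 2 and 47236 in cortex 1. Cortex 2 had the fewest peaks, 61965, and hippocampus 1 the most, 157220. Peaks had been called in each library on its own, so a gene without a peak had no count at all in that library, and its openness there was below what the peak caller accepted rather than a measured 0. Between 1.56% and 2.03% of the barcodes of a library also occurred in another library. Of the markers of GABAergic neurons 7 of 7 had a peak in all 4 libraries, as did 8 of 9 excitatory neuron markers, 4 of 9 oligodendrocyte lineage markers and 67.4% of all protein-coding genes, so that peak presence by itself did not set the sorted cell type apart.

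The 9 factors had few peaks, and these held few cut sites. In all, 17 peaks overlapped them, 10 in cortex 1, 0 in cortex 2, 5 in hippocampus 1 and 2 in hippocampus 2. At least 1 peak lay at 6 of 9 genes in cortex 1, at 3 in hippocampus 1 and at 2 in hippocampus 2, while 74.6%, 76.7% and 72.5% of all protein-coding genes had one. In cortex 2 no member had a peak, against 68.5% of all genes. Summed over the 9 genes, the peaks covered 5663 bp in cortex 1, 1705 bp in hippocampus 1 and 574 bp in hippocampus 2. They held 26.9, 8.72 and 4.78 CPM, the cut sites scaled to 1000000 cut sites of the library. For scale, Gad2 on its own held 114 CPM in cortex 1, 60.5 in cortex 2, 161 in hippocampus 1 and 130 in hippocampus 2. Every member thus lay below Gad2 in every library, as the plot of peak bases and cut sites shows.

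**Figure D1:**
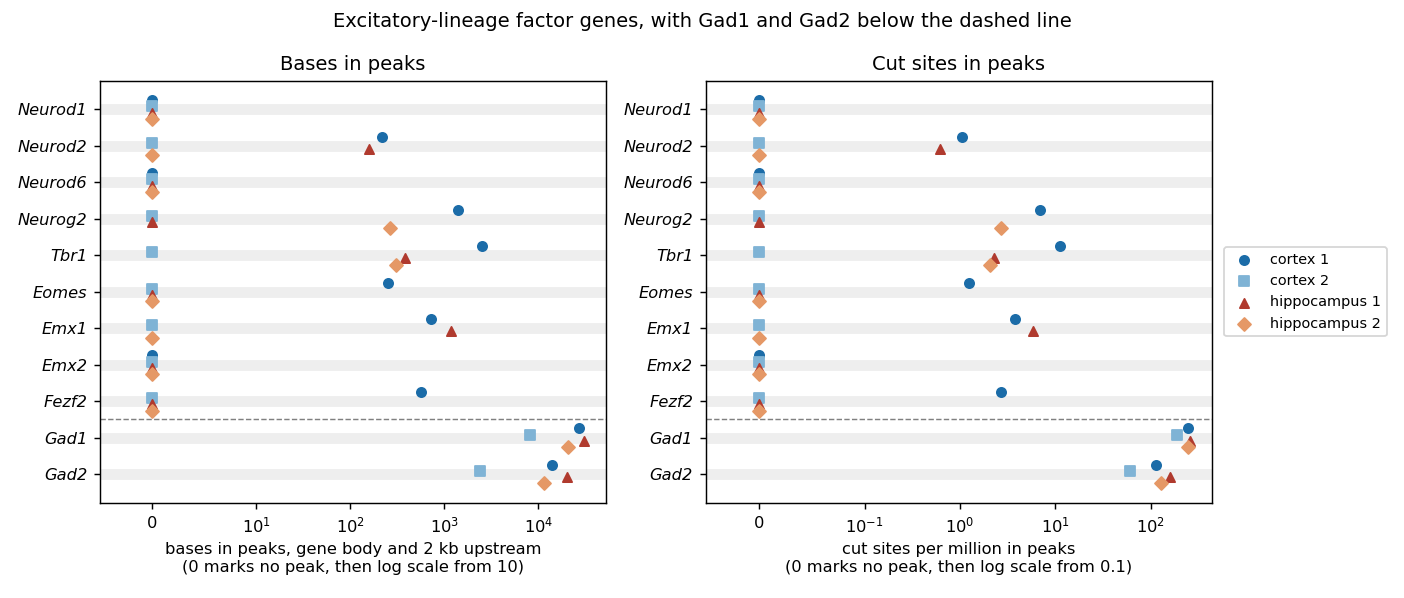
Bases in peaks (left) and CPM (right) over the gene body and 2 kb upstream of each factor, with Gad1 and Gad2 below the dashed line. Each point is 1 library, points at 0 mark genes without a peak, and no factor passed 11.1 CPM while Gad2 ranged from 60.5 to 161 CPM.

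None of the 9 genes had a peak in all 4 libraries, whereas 67.4% of all genes did. Neurod1, Neurod6 and Emx2 had no peak in any library, as did 21.8% of all genes. Eomes and Fezf2 had a peak in cortex 1 alone, Neurod2, Neurog2 and Emx1 in 2 libraries and Tbr1 in 3. With cortex 2 set aside, 1 of 9 members (Tbr1) had a peak in the 3 remaining libraries, against 71.3% of all genes. With cortex 1 set aside, 0 of 9 members had a peak in all 3 others, against 68.0% of all genes, and 5 of 9 had none, against 23.1%.

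Other lists of transcription factors gave a scale for these counts. Of 16 further factors of dorsal progenitors and excitatory neurons, 10 had a peak in all 4 libraries and 2, Neurog1 and Neurod4, had none in any. Bcl11b, Sox5, Cux2 and Tle4 were among the 10, with 59.8 (Tle4 in hippocampus 1) to 434 CPM (Bcl11b in cortex 1). Several of these genes are also used by interneurons. Among 13 bHLH, T-box and Fez family paralogs of other lineages, 3 had a peak in all 4 libraries and 5 had none. Of 14 interneuron-lineage factors, 13 had a peak in all 4 libraries, and the remaining gene was Nkx2-1, which had 1 peak of 0.554 CPM in cortex 1. Of 8 Hox genes, taken as a reference for genes silent in the forebrain, 7 had no peak in any library. These lists were described by their counts and not tested against each other. A longer gene offers more room for peaks, and the 9 members were 2.50 to 17.0 kb long.

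At the gene starts, a peak within 1 kb of the annotated start was present at 5 of 9 members in cortex 1, 0 in cortex 2, 1 in hippocampus 1 and 1 in hippocampus 2. The same window held a peak for 63.5%, 55.8%, 63.1% and 60.5% of all genes, in that order. It held one for 12, 11, 12 and 12 of the 14 interneuron-lineage factors, and for 4, 2, 3 and 3 of the 13 paralogs of other lineages. In the plot of promoter peaks by gene list, the members and the Hox genes both stood at 0% in cortex 2. In each hippocampus library the members stood at 11.1%, between the Hox genes at 0% and the paralogs of other lineages at 23.1%. In cortex 1, the library with the most cut sites per nucleus, the members stood at 55.6%. Promoter peaks in that library included very small ones, such as the 17 bp peak of Neurod2. Gad1 had 0 peaks in this window in each library. Its gene nevertheless held 247 CPM in cortex 1, 188 in cortex 2, 260 in hippocampus 1 and 250 in hippocampus 2. A missing peak in this window thus did not by itself mark a closed gene.

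**Figure D2:**
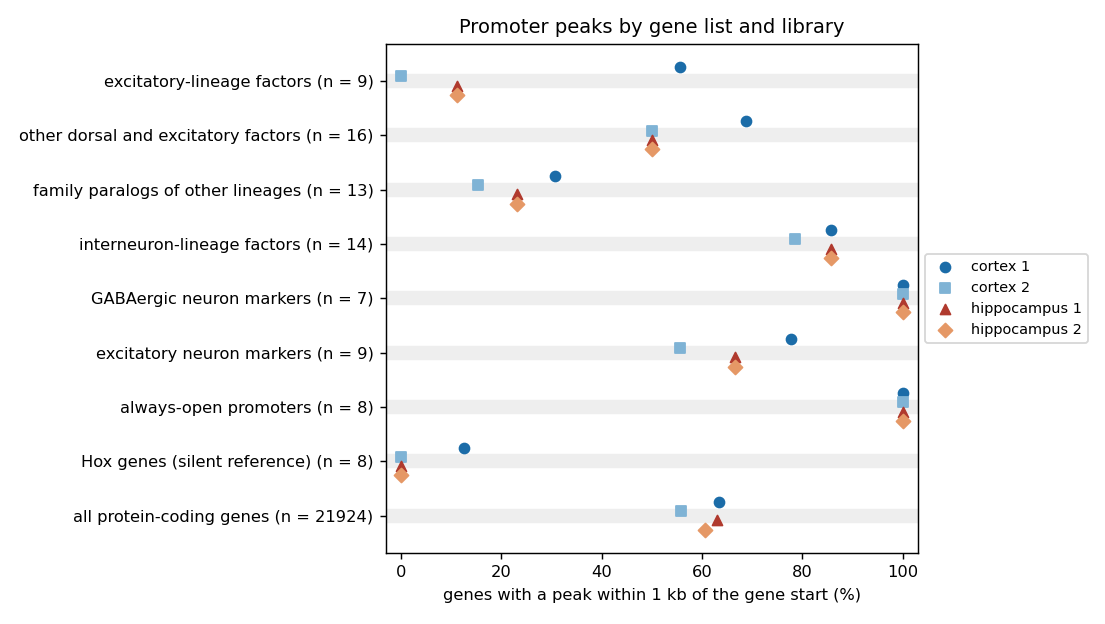
Percent of genes with a peak within 1 kb of the gene start, for each gene list (rows, with the number of genes) and each library (points). The excitatory-lineage factors stand at 55.6% in cortex 1 and at 0 to 11.1% in the other libraries, and all protein-coding genes at 55.8% to 63.5%.

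Among the bHLH factors, Neurog2 (chr3:127633135-127635631, + strand, GRCm38) had the highest level in cortex 1 and in hippocampus 2, while in hippocampus 1 Neurod2 alone had a peak. In cortex 1 a single peak of 1394 bp ran from the gene start into the coding sequence and held 820 cut sites, or 6.99 CPM. At least 1 of them was found in 359 of 2355 nuclei, 15.2% (95% exact binomial interval 13.8 to 16.8). In hippocampus 2 a peak of 267 bp lay inside the same stretch, centred 1144 bp downstream of the start and wholly in coding sequence, with 129 cut sites (2.69 CPM) in 2.64% of nuclei (2.11 to 3.26). Cortex 2 and hippocampus 1 had no peak there, and their nearest peaks lay 56.7 and 53.9 kb from the start. The hippocampus 2 peak is shown because it is 1 of 2 places where members had overlapping peaks in more than 1 library. Capitals mark the letters CATCTG, which read CAGATG on the other strand, a core hexamer of the E-boxes bound by NEUROD and NEUROG factors, and the sequence runs along the + strand of chr3:127634146-127634412.
Neurog2 peak: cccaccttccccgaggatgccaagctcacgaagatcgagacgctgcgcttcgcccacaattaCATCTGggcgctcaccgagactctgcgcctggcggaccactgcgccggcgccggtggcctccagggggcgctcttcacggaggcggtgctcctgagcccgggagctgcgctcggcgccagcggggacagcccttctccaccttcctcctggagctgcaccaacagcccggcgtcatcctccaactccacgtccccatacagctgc
Its GC content was 68.5% with 25 CpG dinucleotides. The hexamer occurred once, and 26.5% of the 98419 peaks of hippocampus 2 held it in a central window of the same length, 267 bp.

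Neurod2 had 2 peaks in cortex 1, of 202 bp in the coding exon and of 17 bp in the intron, with 102 and 20 cut sites. The wider peak was found in 3.40% of nuclei (2.70 to 4.21). Hippocampus 1 had a peak of 156 bp upstream of the gene, its centre at -1308.5 bp from the start, with 45 cut sites in 0.664% of nuclei (0.468 to 0.913). These peaks did not overlap between the libraries. Over the whole genome, 46698 of 185260 merged regions held a peak of every library, so peaks missing from some library were common. No library had a peak at Neurod1 or Neurod6. The nearest peak to Neurod1 lay 27.8 kb downstream of the start, in Cerkl, in cortex 1, and 42.5 kb upstream in each of the other libraries. For Neurod6 the nearest peak lay at 4.01 kb in cortex 1, 36.0 kb in both hippocampus libraries and 111 kb in cortex 2. Over all genes, the median distance from the start to the nearest peak was 0 to 0.073 kb.

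Tbr1 (chr2:61802930-61814114, + strand) was the only member with a promoter peak in more than 1 library. The peak measured 883 bp in cortex 1, 384 bp in hippocampus 1 and 307 bp in hippocampus 2. It held 416, 166 and 100 cut sites, which were 3.55, 2.29 and 2.09 CPM. Nuclei with a cut site made up 8.32% in cortex 1 (7.24 to 9.51), 1.78% in hippocampus 1 (1.45 to 2.16) and 2.07% in hippocampus 2 (1.61 to 2.63). The peak lay over a noncoding exon at the start of the GENCODE gene, 1523 bp upstream of the RefSeq start. No peak of the hippocampus libraries came within 1 kb of that RefSeq start. Cortex 1 also had a peak of 824 bp and one of 800 bp over coding exons, with 2.86 and 4.71 CPM. Cortex 2 had no peak at Tbr1, and its nearest peak was 90.8 kb away in Psmd14. The central 300 bp of the hippocampus 2 peak, chr2:61802848-61803147 on the + strand, are shown because this is the other place with overlapping peaks, again with CATCTG in capitals.
Tbr1 peak: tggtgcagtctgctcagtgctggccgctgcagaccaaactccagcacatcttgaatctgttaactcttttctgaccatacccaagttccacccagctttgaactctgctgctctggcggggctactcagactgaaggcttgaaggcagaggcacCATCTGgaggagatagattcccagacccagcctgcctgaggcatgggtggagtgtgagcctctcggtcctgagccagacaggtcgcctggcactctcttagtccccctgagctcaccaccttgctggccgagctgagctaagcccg
This stretch held 6 CpG dinucleotides, at 0.239 of the number expected from its C and G content. It held CAGATG once, on the minus strand, as did 28.8% of windows of this length in hippocampus 2 peaks, and no AGGTGTGA, the core of the T-box motif, which 0.893% of those windows held on either strand.

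Eomes, the other T-box member (chr9:118478212-118486132, + strand), had a single peak, of 249 bp, in cortex 1. It lay over coding sequence centred 934 bp downstream of the start and held 147 cut sites, 1.25 CPM, in 4.12% of nuclei (3.35 to 5.00). The other libraries shared a nearest peak 11.4 to 11.5 kb downstream of the start, beyond the end of the gene, with 4.85 to 5.80 CPM. Whether cortex 1 also had a peak at that place was not looked up. That place was outside the window of the gene and entered no count.

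Of the homeobox pair, Emx1 (chr6:85187438-85204462, + strand) had 2 peaks in cortex 1 and 3 in hippocampus 1, all 5 of them apart from each other. How often peaks of these libraries overlapped over all genes was not counted. The Emx1 peaks of cortex 1 measured 140 bp in coding sequence and 586 bp in an intron, with 0.452 and 3.30 CPM. Those of hippocampus 1 measured 337 to 458 bp, lay in introns and held 1.71 to 2.11 CPM each. Emx2 (chr19:59458372-59465357, + strand) had no peak within its window in any library. All 4 libraries nevertheless shared a peak 3.53 to 3.76 kb upstream of its start, overlapping the antisense gene Emx2os. It held 7.78 CPM in cortex 1, 7.50 in cortex 2, 3.84 in hippocampus 1 and 5.09 in hippocampus 2. It was found in 17.3%, 3.67%, 2.92% and 4.68% of nuclei, in that order. These shares were not adjusted for depth, and the median was 47236 cut sites per nucleus in cortex 1 and 7352 in cortex 2. Fezf2 (chr14:12342094-12348189, minus strand) had 1 peak, of 568 bp in cortex 1, overlapping untranslated exon sequence, with 318 cut sites in 7.69% of nuclei (6.64 to 8.84). It lay 1542.5 bp downstream of the GENCODE start but within 1 kb of the RefSeq start, which is 2324 bp further in.

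In openness per length, all but 1 of the 17 peaks fell below the median of their library. Their CPM per kb ranked at percentiles 3.45 to 43.5 of the library's peaks, the exception being the 17 bp peak of Neurod2, at percentile 80.1. In cut sites, 15 of the 17 fell below the median peak of their library. The exceptions were the Neurog2 peak (percentile 71.6) and the 800 bp peak of Tbr1 (percentile 59.7), both in cortex 1.

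Promoter base composition was set beside the peaks. RefSeq promoter sequences, from 250 bases before to 50 after the start (GRCm38.p6), were matched for all 9 members and for 16522 of the 21924 genes. Promoters with a GC content over 50% and a CpG count over 0.6 of the expected number were called CpG-rich, and 5 of 9 members met this at the RefSeq start: Neurod1, Neurod2, Emx1, Emx2 and Fezf2. Peaks were counted around the GENCODE start, which for Tbr1 and Fezf2 lies 1523 and 2324 bp from the RefSeq start, so that for these genes composition and peaks were read at different places. Of 7837 genes with a CpG-rich promoter, 87.5% had a promoter peak in all 4 libraries and 5.47% in none. Of the 5 CpG-rich members, 0 had a promoter peak in all 4 libraries and 3 (Neurod1, Emx2 and Fezf2) had none, or 2 when peaks were counted around the RefSeq start, where Fezf2 had one in cortex 1. In the comparison lists, 1 of 5 CpG-rich paralogs of other lineages had a promoter peak in all 4 libraries. So did 3 of 6 CpG-rich further dorsal and excitatory factors, 3 of 4 interneuron-lineage factors and 0 of 1 Hox genes. Among the 8685 genes without a CpG-rich promoter, 29.6% had a peak in all 4 libraries and 56.5% in none. The 4 members in that class were Neurod6 with no promoter peak, Neurog2 and Eomes with one in cortex 1, and Tbr1 with one in 3 libraries, or in cortex 1 alone around the RefSeq start. The 250 bases before the RefSeq starts of Emx2 and Neurod6 are shown as examples of the CpG-rich and the CpG-poor kind without a peak in any library, each along the strand of its gene, at chr19:59458440-59458689 and chr6:55681264-55681513.
Emx2 promoter: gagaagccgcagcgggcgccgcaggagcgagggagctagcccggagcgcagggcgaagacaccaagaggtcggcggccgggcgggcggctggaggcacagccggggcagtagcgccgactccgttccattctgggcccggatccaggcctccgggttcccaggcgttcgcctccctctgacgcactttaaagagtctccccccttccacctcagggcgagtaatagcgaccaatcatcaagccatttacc
Neurod6 promoter: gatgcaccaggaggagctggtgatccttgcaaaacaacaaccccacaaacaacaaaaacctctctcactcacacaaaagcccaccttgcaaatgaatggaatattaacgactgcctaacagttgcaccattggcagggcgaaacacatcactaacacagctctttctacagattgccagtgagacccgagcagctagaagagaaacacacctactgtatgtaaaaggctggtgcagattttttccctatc
The Emx2 stretch held 24 CpG dinucleotides at a GC content of 67.2%, and the Neurod6 stretch 3 at 46.0%. Neither held any of 4 motif cores searched on both strands. The first, CAGATG, and the second, CATATG, are E-box hexamers of NEUROD and NEUROG factors, the next is the E-box CAGCTG, and the last is the T-box core AGGTGTGA. In the 250 bases before the start, CAGATG was found in 12.4% of all promoters and in 1 member (Neurod2), and CATATG in 2.72% and in 2 members (Neurod1 and Neurod2). CAGCTG was found in 11.9% of all promoters and AGGTGTGA in 1.05%, and in no member.

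The openness of a promoter and the share of nuclei that carry it were then set side by side. Because the share grows with depth, it was computed as the expected share after thinning each nucleus to 2000 cut sites. The 7 member promoters with a peak held 0.171 to 6.99 CPM, where the median over all promoters with a peak was 28.8 CPM in cortex 1, 21.3 in hippocampus 1 and 32.8 in hippocampus 2. In cortex 1, Neurog2 reached 1.30% of thinned nuclei, Tbr1 0.699%, Eomes 0.230%, Emx1 0.0916% and Neurod2 0.0340%. Tbr1 reached 0.389% in hippocampus 1 and 0.349% in hippocampus 2. The median over all promoters was 5.46%, 3.70% and 5.80% in these libraries, and Gad2 stood at 12.8%, 9.26% and 11.7%. Before thinning, Tbr1 had 8.32% in cortex 1 and 1.78% and 2.07% in the hippocampus libraries, a wider gap than after thinning. Nuclei with a cut site in one of these 7 promoter peaks held 1.00 to 2.28 cut sites there on average. In the plot of openness against share, the members lay along the same line as all other promoters, in its lower part. With every nucleus thinned to 2000 cut sites, the share at a promoter with few cut sites follows almost directly from its CPM. The common line was therefore not a separate result. These shares cover counting error only and nuclei of 1 library are not replicates, so they were not tested.

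**Figure D3:**
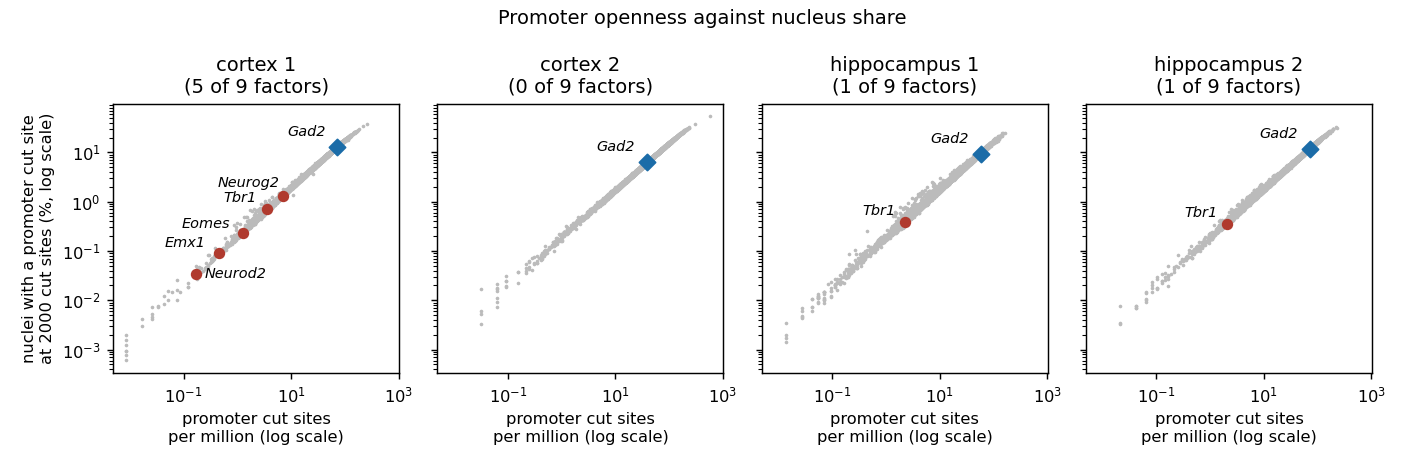
Promoter CPM (x axis, log scale) against the percent of nuclei with a promoter cut site at 2000 cut sites per nucleus (y axis, log scale), for every promoter with a peak (grey), the factors (red) and Gad2 (blue), in each library. The factors lie in the lower part of a common line, between 0.0340% and 1.30%, and Gad2 in its upper part. The line itself follows largely from computing the share at a fixed depth.

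Cortex and hippocampus could not be compared for most members. The comparison of the regions had been set on regions holding a peak of every library, and 0 of the 9 genes overlapped one of these 46698 common regions. That fit called 0 of 14622 genes (0%) at an adjusted p of 0.05 with edgeR, 511 at an unadjusted p of 0.05, and DESeq2 called 21. When all peaks of each library were counted instead, 4 members passed the filter on low counts and none was called, against 1 of 16300 genes (0.00613%). Hippocampus minus cortex, the log2 fold change was -1.36 ± 3.01 (SE) for Tbr1, -1.50 ± 4.19 for Neurog2, -0.67 ± 7.07 for Neurod2 and 0.70 ± 4.06 for Emx1, each with an adjusted p of 1.00. A library without a peak at a gene entered this fit as 0 cut sites, which was not a measured 0. The fold changes thus followed which libraries had a peak and not openness alone. Within cortex, the first library had peaks at all 4 of these genes and the second had none. Tbr1 had 11.1 CPM in cortex 1 and 2.29 and 2.09 CPM in the hippocampus. It had no peak in cortex 2, so its level there could not be placed against the hippocampus libraries.

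The nuclei were next divided by the cut sites in their Gad1 and Gad2 genes, counted in common regions. Nuclei with at least 2000 cut sites in common regions were placed in a class with cut sites in both genes, in 1 of them or in neither. Nuclei with cut sites in neither gene numbered 107 in cortex 1 (4.54% of nuclei), 1558 in cortex 2 (37.2%), 1162 in hippocampus 1 (20.8%) and 624 in hippocampus 2 (19.6%). They were also shallower, with a median of 6364.5 to 21132 cut sites against 9626 to 51391 in nuclei with both, and the part of depth in this division was not tested. Oligodendrocyte lineage markers, 9 genes in all, moved with this division. Their summed level over genes with a peak was 287, 224, 255 and 240 CPM in nuclei with both Gad genes and 864, 238, 512 and 789 CPM in nuclei with neither, for cortex 1, cortex 2, hippocampus 1 and hippocampus 2. They were higher without Gad cut sites for 6 of 8 genes with counts in cortex 1, 4 of 4 in cortex 2 and 9 of 9 in each hippocampus library. Their part in the results below was not tested. Excitatory neuron markers summed to 688, 581, 693 and 714 CPM with both Gad genes and to 592, 589, 641 and 653 CPM with neither, in the same order. Their sum was thus lower without Gad cut sites in every library but cortex 2.

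Cut sites at the factors came from nuclei with Gad cut sites as well as from nuclei without. In nuclei with both Gad genes, the peaks of the 9 members summed to 26.5 CPM in cortex 1, 9.61 in hippocampus 1 and 5.13 in hippocampus 2. In nuclei with neither, they summed to 22.2, 8.46 and 6.48 CPM. For Tbr1 in cortex 1 the levels were 11.0 CPM (95% Poisson interval 10.4 to 11.7) with both, 11.8 (10.3 to 13.6) with 1 and 9.31 (5.77 to 14.2) with neither. In hippocampus 1 they were 2.66, 1.95 and 2.11 CPM, and in hippocampus 2 they were 2.91 (2.26 to 3.69), 1.27 (0.802 to 1.90) and 1.42 (0.651 to 2.70). Tbr1 was therefore lower without than with Gad cut sites in 3 of 3 libraries, with overlapping intervals in each. Emx1 ran the same way, at 3.72 against 2.66 CPM in cortex 1 and 6.30 against 5.54 CPM in hippocampus 1.

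Neurog2 ran the other way. In hippocampus 2 it stood at 2.23 CPM (1.66 to 2.92) in nuclei with both Gad genes, 2.42 (1.76 to 3.25) with 1 and 5.06 (3.46 to 7.14) with neither, the last from 32 cut sites. In cortex 1 it stood at 6.90 (6.39 to 7.43), 7.36 (6.12 to 8.78) and 8.43 (5.07 to 13.2) CPM. The intervals of the extreme classes were apart in hippocampus 2 and overlapped in cortex 1. They cover counting error only, and cut sites come in pairs from 1 fragment, so they are too narrow. Eomes had 119 cut sites with both Gad genes and 0 with neither in cortex 1. The interval of the latter reached 1.64 CPM against 1.21 CPM with both, so that a difference was not detectable at this depth. Fezf2 had 3 cut sites with neither in cortex 1 and Neurod2 had 1 in that library and 8 in hippocampus 1.

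**Figure D4:**
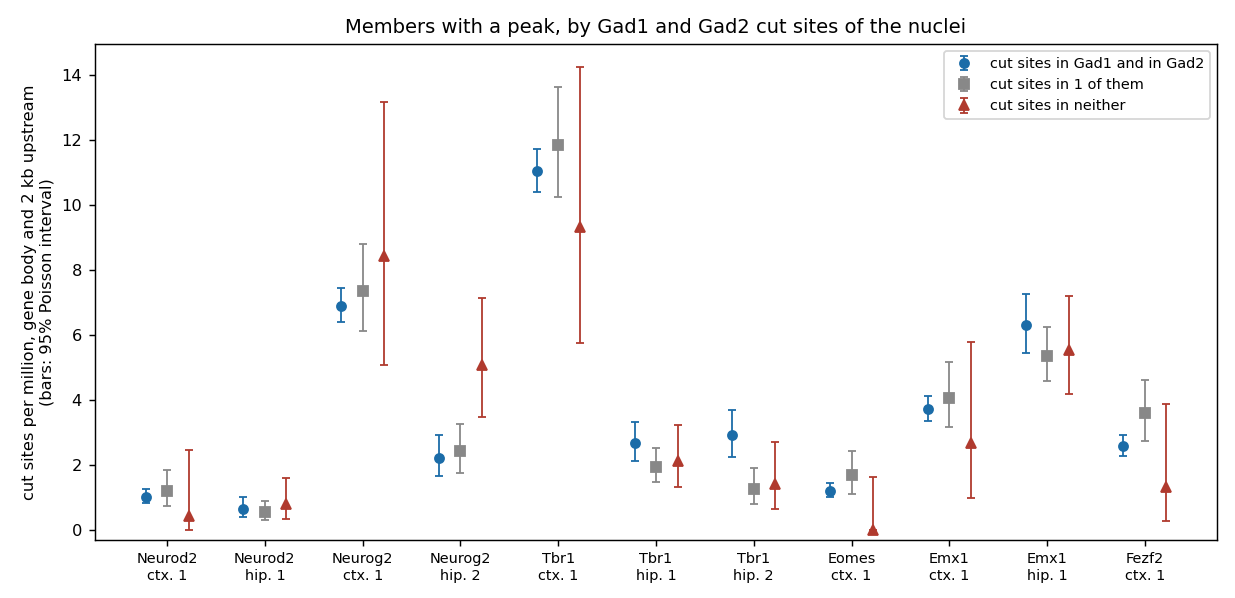
CPM of each factor with a peak, gene and 2 kb before it (y axis), by library (x axis), in nuclei with cut sites in Gad1 and in Gad2 (blue), in 1 of them (grey) and in neither (red). Bars are 95% Poisson intervals, and the blue and red bars overlap in 10 of the 11 pairs, the exception being Neurog2 in hippocampus 2.

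The contrast of nuclei without against nuclei with Gad cut sites was tested over the libraries, with the library as a block. On common regions 0 of 14617 genes were called (0%) with edgeR, 3611 had an unadjusted p under 0.05 and DESeq2 called 541, but no member was in the test. Counting all peaks of each library, a choice made after seeing the data, put 3 members through the filter on low counts. None was called, where 1 of 16002 genes was (0.00625%). The log2 fold change, without minus with, was -0.59 ± 0.29 (SE) for Tbr1 (edgeR adjusted p = 0.264), 0.61 ± 0.43 for Neurog2 (adjusted p = 0.400) and -0.38 ± 0.38 for Emx1 (adjusted p = 0.544). Tbr1, with counts in 3 libraries, had the smallest error of the 3. Neurod2, Eomes and Fezf2 did not pass the filter, and Neurod1, Neurod6 and Emx2 had no counts. The difference of this contrast between hippocampus and cortex was called for 0 of 16002 genes (0%), with 133 at an unadjusted p under 0.05 and 0 by DESeq2. It was -0.22 ± 0.66 for Tbr1, 1.06 ± 0.79 for Neurog2 and 0.46 ± 0.87 for Emx1, each with an edgeR adjusted p of 1.

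In the same fit, none of the comparison lists had a called gene. Among the other dorsal and excitatory-lineage factors, 12 of 16 were tested, with a median log2 fold change of -0.14 where the median of all genes was -0.02. The largest change in that list was that of Bhlhe22, a bHLH factor, at 0.92 ± 0.29 (edgeR adjusted p = 0.200). Of 14 interneuron-lineage factors 13 were tested, with a median of -0.46 and the largest change at Lhx6, which acts in interneurons of the medial eminence (-0.74 ± 0.21, edgeR adjusted p = 0.200). Of the oligodendrocyte lineage markers 9 of 9 were tested, with a median of 1.70, and Olig2 had 4.88 ± 0.39 (edgeR adjusted p = 0.0718).

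By promoter, each Gad gene was also used on its own. Tbr1 in cortex 1 was found in 0.741% of thinned nuclei with Gad1 cut sites and 0.0905% of the 153 nuclei without, the latter from 1 cut site. With and without Gad2 cut sites the shares were 0.710% and 0.661%. In hippocampus 1 they were 0.420% and 0.333% by Gad1, and 0.412% and 0.374% by Gad2. In hippocampus 2 they were 0.384% and 0.268% by Gad1, and 0.492% and 0.214% by Gad2. In the 3 libraries with a Tbr1 promoter peak, the share was higher with cut sites in either Gad gene. Over all promoters with a peak, the median share with and without Gad1 cut sites was 5.43% and 5.80% in cortex 1, 3.83% and 3.64% in hippocampus 1, and 5.83% and 5.67% in hippocampus 2. For Neurog2 in cortex 1 the shares were 1.31% with and 1.24% without Gad1, and 1.29% with and 1.37% without Gad2. The remaining promoters rested on fewer cut sites, with 1 at Eomes and 0 at Neurod2 and Emx1 in nuclei of cortex 1 without Gad1.

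Motifs carrying the names of the factors had counts in nearly every nucleus. A motif count, as read from the format of the tables, sums the cut sites of a nucleus in peaks that hold the motif. Members of a family bind near-identical motifs, so a count does not tell which factor, if any, was bound. The 6 motifs had a count in 93.7% to 100% of nuclei. Each motif drew on many peaks, with 36089 (NEUROG2 in cortex 2) to 1014618 counts (NEUROD1 in cortex 1) per library. These shares are therefore not comparable with the share of nuclei at a single gene. NEUROD1, the most frequent, ranked 271st to 321st of 579 and NEUROG2, the least frequent of the 6 in each library, 520th to 557th.

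The cortex libraries differed from each other at every one of the 6 motifs. Their peak sets differed too, covering 97.6 Mb in cortex 1 and 33.4 Mb in cortex 2. The part of the peak sets in the motif values was not tested. NEUROD2 had 245 and 77.9 CPM (motif counts, TMM-normalised) in cortex 1 and cortex 2, and 219 and 139 in hippocampus 1 and hippocampus 2. NEUROD1 stood at 463 and 668 in cortex and at 521 and 422 in hippocampus. For EOMES the values were 101 and 183 in cortex and 115 and 110 in hippocampus, and for TBR1 they were 233 and 111 in cortex and 197 and 159 in hippocampus. For 4 of the 6 motifs both hippocampus libraries lay between the cortex libraries, and for NEUROG2 and NEUROD1 one of them did. Hippocampus minus cortex, the log2 fold changes ran from -0.33 ± 0.38 for EOMES to 0.16 ± 0.38 for NEUROG2, and none was called (edgeR adjusted p = 0.996 each). Over all motifs 0 of 579 were called (0%), with 1 at an unadjusted p under 0.05 and 0 by DESeq2. Without cortex 1, the cortex arm was the single library cortex 2, assumed to vary like the hippocampus libraries, and 116 of 579 motifs were called (20.03%). In that fit 2 of the 6 passed: NEUROD2 at 1.202 ± 0.31 (edgeR adjusted p = 0.00240) and Neurog1 at 0.88 ± 0.30 (edgeR adjusted p = 0.0251). Without cortex 2 the same motifs had -0.38 and -0.32 and did not pass, so the direction rested on which cortex library was kept.

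**Figure D5:**
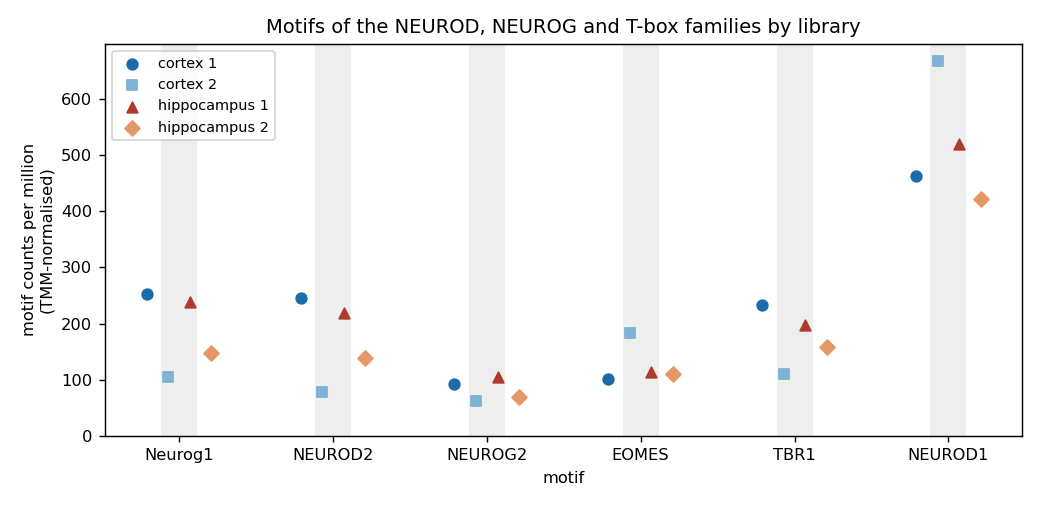
TMM-normalised CPM of motif counts (y axis) of the 6 motifs named for the factors (x axis), with 1 point per library. The gap between the 2 cortex libraries, in CPM, is widest for NEUROD1, at 463 and 668, and the hippocampus libraries lie at 521 and 422.

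By Gad class the motif differences were small. Without minus with Gad cut sites, 43 of 579 motifs were called (7.43%), 11 higher and 32 lower, and 1 of the 6 was among them. NEUROG2 fell by 0.16 ± 0.05 on the log2 scale (edgeR adjusted p = 0.0414). It was lower in 4 of 4 libraries, with 94.4 and 69.9 CPM in cortex 1, 62.6 and 62.2 in cortex 2, 107 and 103 in hippocampus 1, and 70.5 and 64.2 in hippocampus 2. Without cortex 1 the difference was -0.07 ± 0.03, and by library it was -0.43 in cortex 1, -0.01 in cortex 2, -0.05 in hippocampus 1 and -0.13 in hippocampus 2. The call was lost with DESeq2 (adjusted p = 0.0973), with RLE size factors (0.0755), without any 1 library (0.0850 to 0.413), and with the lowest and highest 25% of nuclei by Gad cut sites as the classes (-0.02, adjusted p = 0.441). The other 5 motifs had log2 fold changes of -0.10 to 0.00 with edgeR adjusted p-values of 0.166 to 0.958. The median over all motifs was -0.05.

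For each member with counts, the gene with the most similar profile was looked up over the 8 sums of library and Gad class, by Pearson's r of log2(CPM + 1) among 12184 genes with a mean of at least 20 CPM. These were Xylt1 for Neurod2 (r = 0.990), Ube2e3 for Neurog2 (0.984), Asap2 for Tbr1 (0.986), Gfra2 for Eomes (0.955), Eif4g3 for Emx1 (0.981) and Tmem145 for Fezf2 (0.969). Between 2 and 7 of the 8 sums were at 0 for the member, mostly in libraries without a peak, so these profiles follow which libraries had a peak, and they are given as a description.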

How the data were processed

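Raw whole-number counts of cut sites per peak and nucleus, and counts per motif and nucleus, were used as deposited for 4 libraries of GFP+ nuclei. Per the labels the authors ran Cell Ranger ATAC 1.2.0 on GRCm38 (mm10) and deposited filtered barcodes, peaks called per library and motif names, without normalization. The motif columns were read as in the 10x format.

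Genes were the protein-coding genes of GENCODE M21. Sums per library, or per library and Gad class, were tested with edgeR 4.0.16 in R 4.3.3 (TMM, filterByExpr, glmQLFit with robust estimation, two-sided tests, Benjamini-Hochberg over all features tested, threshold 0.05), with Gad1 and Gad2 left out of Gad contrasts. Log2 fold changes use edgeR's default prior count. DESeq2 1.42.0 was an alternative. Standard errors were taken from the F statistic. The code was tested on simulated counts. Merging peaks that overlapped by at least 1 bp gave 185260 regions, of which 46698 held a peak of every library. Shares were to be thinned over common regions. As no member lay there, they were computed over each library's own peaks, by the hypergeometric expectation at 2000 cut sites, and own-peak fits were added. Sums without Gad cut sites were 0 in common regions only. Intervals are 95%. Doublets were not called, and nuclei over 3 times the median were left out as an alternative.

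The members, comparison lists and marker lists were chosen with earlier results of these data known. From each list, genes called, or up to 3 with the largest change, could be named. For likeness, 1 gene per member was taken. The labels number the libraries 1 and 2 in each region but do not say that a number is shared, so the replicate block was an alternative only.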

Additional observations from a re-analysis of the deposited data

How the results depend on the processing

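The Gad contrasts of Tbr1, Neurog2 and Emx1 stayed uncalled in every alternative that held them: DESeq2, RLE size factors, no filter on low counts, each library left out, classes from the extreme 25% of nuclei by Gad cut sites (extreme classes), and without nuclei over 3 times the median depth. With extreme classes they were smaller, at -0.25 ± 0.25 for Tbr1, 0.34 ± 0.31 for Neurog2 and -0.01 ± 0.28 for Emx1, and Tbr1 was -0.38 ± 0.38 without hippocampus 2. The sign changed in 1 member value, the regional difference of Emx1, from 0.46 to -0.18 with extreme classes.

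Counts over all genes depended on the tool and the library. Between regions, gene calls went from 0 to 21 with DESeq2 and 1 with all peaks, and ranged from 0 to 365 with a library left out (365 without cortex 1, 85 without cortex 2). Motif calls between regions ranged from 0 to 116 (116 without cortex 1, 1 without cortex 2). The replicate block left 0 calls for genes and 0 for motifs, so it changed no call. Deviations of libraries with the same number correlated at -0.15 over genes and 0.68 over motifs, and a block with crossed numbers, added after seeing the data, gave 201 gene calls and 0 motif calls. For the Gad contrast on common regions, calls were 541 with DESeq2 and 997 with extreme classes, and 0 to 125 with a library left out (36 without cortex 1, 125 without cortex 2). On all peaks they were 541, 4 with RLE size factors and 807 with extreme classes, and 0 to 289 with a library left out (52 without cortex 1, 289 without cortex 2, 6 without hippocampus 1, 0 without hippocampus 2). Its regional difference gave 143 calls with extreme classes on common regions and 51 on all peaks. Motif calls by Gad class were 0 with DESeq2, 0 with RLE size factors, 0 without any 1 library and 103 with extreme classes.

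Motif directions between regions changed with a library left out, from lowest to highest -0.32 to 0.88 for Neurog1, -0.38 to 1.202 for NEUROD2, -0.17 to 0.49 for NEUROG2, -0.70 to 0.23 for EOMES, -0.32 to 0.68 for TBR1 and -0.50 to 0.094 for NEUROD1. By Gad class they changed for Neurog1 (-0.072 to 0.00094 with a library left out, 0.022 with extreme classes), NEUROD2 (0.0036 with extreme classes) and TBR1 (-0.0026 to 0.043 with a library left out). The causes were not tested.

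The highest share of nuclei at a member promoter was 1.30%, for Neurog2 in cortex 1. It became 0.666% at 1000 cut sites, 3.08% at 5000 and 0.0524% with at least 2 cut sites. In the window from 2 kb upstream to the start Neurog2 had no peak in cortex 1. The highest share there was 0.699%, for Tbr1 in cortex 1. From the RefSeq start, 6 member promoters had a peak, all in cortex 1, against 7 from the GENCODE start. Peaks were called per library, so depth limits which genes have a count, and members below the peak threshold could not be measured.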
